A study of Mus musculus with 27 samples.

Results

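The genes described here encode parts of the photoreceptor ribbon synapse, the output synapse of cones and rods. The list names 8 genes, Cacna1f, Cacna2d4, Cacnb2, Ctbp2, Bsn, Pclo, Rims2 and Stx3, and a gene was taken as measured where a probe set of the arrays carries its symbol in the probe table. That held for 6 of the 8, with 1 probe set each, of 19301 genes with a symbol of their own. Cacnb2 and Ctbp2 were not matched to a probe set by symbol, Entrez number or accession and were not analysed here.

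The study holds 27 mouse gene arrays (9 groups with 3 arrays each), and every array was made from 200 fluorescent cells sorted out of dissociated adult retina. Pure cone photoreceptors came from the line Tg(Chrnb4-EGFP)1Gsat, in which a Chrnb4 transgene drives EGFP. Pure starburst cells, amacrine interneurons that release acetylcholine, came from a cross of 129S6-Chat_tm1(cre)Lowl/J mice with the reporter Rosa26-LSL-RFP, in which Cre from the Chat locus switches on RFP. Mixtures held 50, 75, 100, 150, 157 or 183 cones among the 200 cells, with starburst cells making up the rest, and 3 of them (50, 100 and 150) form with the pure groups a titration in 5 steps. The ninth group held amacrine cells from Tg(Arc-EGFP)194Gsat/Mmcd, which the study used as an internal control between batches. A titration sort started from a pool of 2 cone-line and 6 starburst-line retinas, and different mice were used for each of its 3 repeats. All 9 groups carry the labelled background of FVB/N-Swiss Webster hybrid mixed with C57BL/6J. The founders obtained from the MMRRC are stated to harbour a recessive allele for photoreceptor degeneration and were crossed back to C57BL/6J. Cell type, mouse line and reporter change together between the pure groups and cannot be told apart.

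A ribbon synapse releases glutamate continuously in darkness. A plate of RIBEYE, a product of the Ctbp2 gene, holds vesicles next to L-type calcium channels, and Bassoon anchors this plate at the membrane. The channel of cone and rod terminals is built from Cav1.4 (Cacna1f), the auxiliary subunit α2δ-4 (Cacna2d4) and a β subunit (Cacnb2), and its opening drives fusion through SNARE proteins that include syntaxin 3 (Stx3). Starburst and other amacrine cells release transmitter from conventional synapses without ribbons.

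Promoter windows of Cacna1f and Stx3, genes that moved together across the arrays, are shown first. They are the 250 bases before an annotated start in RefSeq (GRCm38.p6). RefSeq windows were matched for 6 of the 8 listed genes and for 4 of the 6 measured ones. The windows, read 5′ to 3′ in the direction of the gene, lie at chrX:7606853-7607102 on the plus strand for Cacna1f and at chr19:11819404-11819653 on the minus strand for Stx3. The RefSeq span of Stx3 runs from 11775118 to 11821569, so its window precedes a start inside the gene. The bases before the 5′ end of that span were not searched.
Cacna1f: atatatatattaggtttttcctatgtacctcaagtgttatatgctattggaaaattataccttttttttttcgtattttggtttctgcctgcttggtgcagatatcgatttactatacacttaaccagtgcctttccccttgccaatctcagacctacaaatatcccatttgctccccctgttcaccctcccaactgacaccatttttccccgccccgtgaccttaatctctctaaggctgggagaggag
Stx3: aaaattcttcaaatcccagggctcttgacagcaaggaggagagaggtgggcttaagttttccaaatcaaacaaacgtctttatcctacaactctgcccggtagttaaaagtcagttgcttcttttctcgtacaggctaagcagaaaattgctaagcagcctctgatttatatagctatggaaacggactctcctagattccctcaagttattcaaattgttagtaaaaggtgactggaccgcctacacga
Neither window holds TAATCC on either strand, the core bound by the photoreceptor factors CRX and OTX2, and no letters are therefore in capitals. The same 6 letters were absent from the windows of Pclo and Bsn. Of 32851 promoter windows of this length, 6.25% hold TAATCC, so an absence says only that these letters are not in these windows. Among the listed genes the letters occur in 1 window, of the unmeasured Ctbp2, on the strand opposite to the gene. They lie at bases 121 to 116 before an annotated start inside that gene.

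The deposited values are on a log2 scale, and differences below are differences of log2 values, so that 1 stands for 2-fold. Genes were called at an adjusted p under 0.05 in limma (Benjamini-Hochberg over 12441 tested genes) together with an absolute log2 difference of at least 1. All 6 measured members were among the tested genes. Counts at an unadjusted limma p under 0.05 are given beside counts of 0, without a share of all genes, and are not read as results. Errors of differences are standard errors (SE) from 1 fit over all 27 arrays, and errors of group means are SD with n = 3.

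The sorted cells were checked against marker genes. The mean of 9 cone markers lay at 7.50 to 8.93 on the pure cone arrays, at 3.08 to 4.12 on the starburst arrays and at 2.81 to 3.88 on the Arc arrays. Slc18a3, the vesicular acetylcholine transporter, read 10.59 to 10.77 on the starburst arrays and 2.81 to 3.56 on the cone arrays. Rods and bipolar cells also have ribbon synapses, so their markers were read beside the members. The mean of 9 measured rod markers (of 11 listed) was 6.31 to 7.61 in the cone group, 5.38 to 6.01 in the starburst group and 4.56 to 5.05 in the Arc group. The mean of 9 measured bipolar markers (of 10 listed) was 3.44 to 4.11, 2.76 to 3.59 and 2.88 to 3.02 in the same order, and single genes of this list differed. Grm6 and Trpm1 lay at 2.31 to 2.91 on the cone arrays, around the median of all values (2.83). Gng13 read 4.76, 5.94 and 7.69 in cones and 3.67, 5.74 and 3.93 in starburst cells (adjusted p = 0.0772), and Pcp2 read 4.55, 4.58 and 6.56 against 3.41, 5.63 and 3.78 (0.333). Both were highest on the third cone array and, among starburst arrays, on the second. Of the tested markers, 2 of 9 for rods (Sag and Rom1) and 1 of 8 for bipolar cells (Cabp5, 2.56 ± 0.38 SE) were called higher in cones than in starburst cells. In either list 0 were called lower, and of all tested genes 2.64% were called higher. Whether these markers were read from rods and bipolar cells or from the sorted cones was not tested.

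Some arrays stood apart from their labels in these markers. The third pure cone array read lowest for the cone markers (7.50 against 8.93 on both others) and highest for the rod markers (7.61 against 6.44 and 6.31). The third arrays of the mixtures with 75, 150, 157 and 183 cones were lowest for the cone markers and highest for the rod markers of their groups as well. The second starburst array read 6.04 for the cone opsin Opn1mw, against 3.93 and 3.94 on the others. These 6 arrays were set aside in a second fit, a choice made after seeing the data, and its values are given below beside the counts.

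The calcium channel subunits were the members with the clearest difference between cones and starburst cells. Cacna1f, the pore-forming subunit of Cav1.4, read 5.78, 5.25 and 4.37 on the 3 pure cone arrays. It read 3.14, 2.71 and 2.97 on the starburst arrays and 2.81, 2.99 and 2.91 on the Arc arrays. Every cone array lay above every starburst and Arc array, and the amacrine arrays of both kinds lay around the median of all values. Pure cones exceeded starburst cells by 2.20 ± 0.36 (SE), a 4.58-fold difference (limma adjusted p = 1.6e-04), with a 95% interval from 1.45 to 2.94. A fold against a group at this level depends on the background of the arrays. The Arc cells lay below the cones by a difference of -2.23 ± 0.36 (adjusted p = 9.5e-05) and differed from the starburst cells by -0.04 ± 0.36 (adjusted p = 0.984; 95% interval -0.78 to 0.70). Cacna1f kept its call against starburst cells in all 9 fits that left out an array or a replicate number, with differences from 1.87 to 2.59. Its lowest cone reading, 4.37, came from the third array, on which the rod markers were highest. With 157 cones the highest Cacna1f reading, 4.70, also came from the third array. There the rod markers were the highest of that group as well (6.60 against 5.91 and 5.82). The part of the rod markers in the Cacna1f difference was not tested. This difference was 2.46 with the 6 arrays set aside.

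Cacna2d4, the auxiliary subunit α2δ-4 of the same channel, read 4.25, 4.94 and 4.11 in cones. The starburst arrays read 2.77, 3.72 and 3.10 and the Arc arrays 3.25, 3.29 and 3.62. Every cone array lay above all 6 amacrine arrays. The difference between cones and starburst cells was 1.23 ± 0.26 (SE), 2.35-fold (adjusted p = 0.00228), and that between Arc cells and cones was -1.05 ± 0.26 (adjusted p = 0.00701). Arc and starburst cells differed by 0.19 ± 0.26 (adjusted p = 0.838). This call was less firm than that of Cacna1f. Against starburst cells it ended without the second cone array (0.98, adjusted p = 0.0219) and without replicate 1 of every group (1.11, adjusted p = 0.0712), and it did not pass when only the compared groups entered the fit (adjusted p = 0.0616). Against the Arc cells it ended without the second cone array (-0.79), the first (-0.98) or second (-1.0) Arc array, or replicate 1 (-1.07, adjusted p = 0.0722) or 2 (-0.74) of every group.

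Stx3 encodes syntaxin 3, the syntaxin of retinal ribbon terminals. It read 5.78, 4.28 and 4.70 in cones, 4.06, 3.54 and 3.76 in starburst cells and 4.13, 4.24 and 4.24 in Arc cells. The cone arrays again lay above both amacrine groups, but the first of them was more than 1 log2 unit above the other two. Cones exceeded starburst cells by 1.13 ± 0.29 (SE), 2.19-fold (adjusted p = 0.00993). Without that first cone array the difference was 0.70 (adjusted p = 0.0789), and the call also ended without the second starburst array (adjusted p = 0.0525), without replicate 1 (0.10) or 3 (0.0582) of every group, and with only the compared groups in the fit (0.129). The Arc cells differed from cones by -0.72 ± 0.29 (adjusted p = 0.0931), which became -1.04 and called without the second cone array (adjusted p = 0.0186). Arc and starburst arrays of Stx3 did not overlap either, with a difference of 0.41 ± 0.29 (adjusted p = 0.579).

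The large scaffold proteins of the active zone gave no call in any of these comparisons. Rims2 encodes RIM2, which ties vesicles and channels together at release sites. Its readings were 4.27, 4.47 and 4.81 in cones, 3.73, 4.35 and 3.45 in starburst cells and 4.39, 4.26 and 3.65 in Arc cells. The second starburst array reached into the range of the cones. The difference between cones and starburst cells was 0.67 ± 0.24 (adjusted p = 0.0727; 95% interval 0.16 to 1.18), and Arc cells differed from cones by -0.41 ± 0.24 (adjusted p = 0.277).

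Pclo encodes Piccolo, a scaffold related to Bassoon that is present at ribbon and conventional synapses. It was the measured member with its highest readings in the Arc cells, at 4.67, 4.28 and 4.62. Cones read 3.76, 3.52 and 3.73 and starburst cells 4.25, 3.74 and 3.95, so that the Arc arrays lay above all others of the pure groups and cone and starburst arrays overlapped. Arc cells exceeded cones by 0.85 ± 0.15 (SE), 1.81-fold, with an adjusted p of 3.7e-04, and starburst cells by 0.54 ± 0.15 with an adjusted p of 0.0404; neither reached the 2-fold threshold. Cones and starburst cells differed by -0.31 ± 0.15 (adjusted p = 0.199).

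Bsn encodes Bassoon, which anchors the ribbon. Its readings lay between 2.42 and 3.01 on all 27 arrays, at or below the median of all values on 22 of them. Cones read 2.79, 2.47 and 2.78, starburst cells 2.47, 2.42 and 2.64 and Arc cells 2.67, 2.49 and 2.54, and the 3 groups overlapped. The difference between cones and starburst cells was 0.17 ± 0.14 (adjusted p = 0.473), with a 95% interval from -0.11 to 0.45. At this level the arrays give no order of the groups for Bsn.

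**Figure D1:**
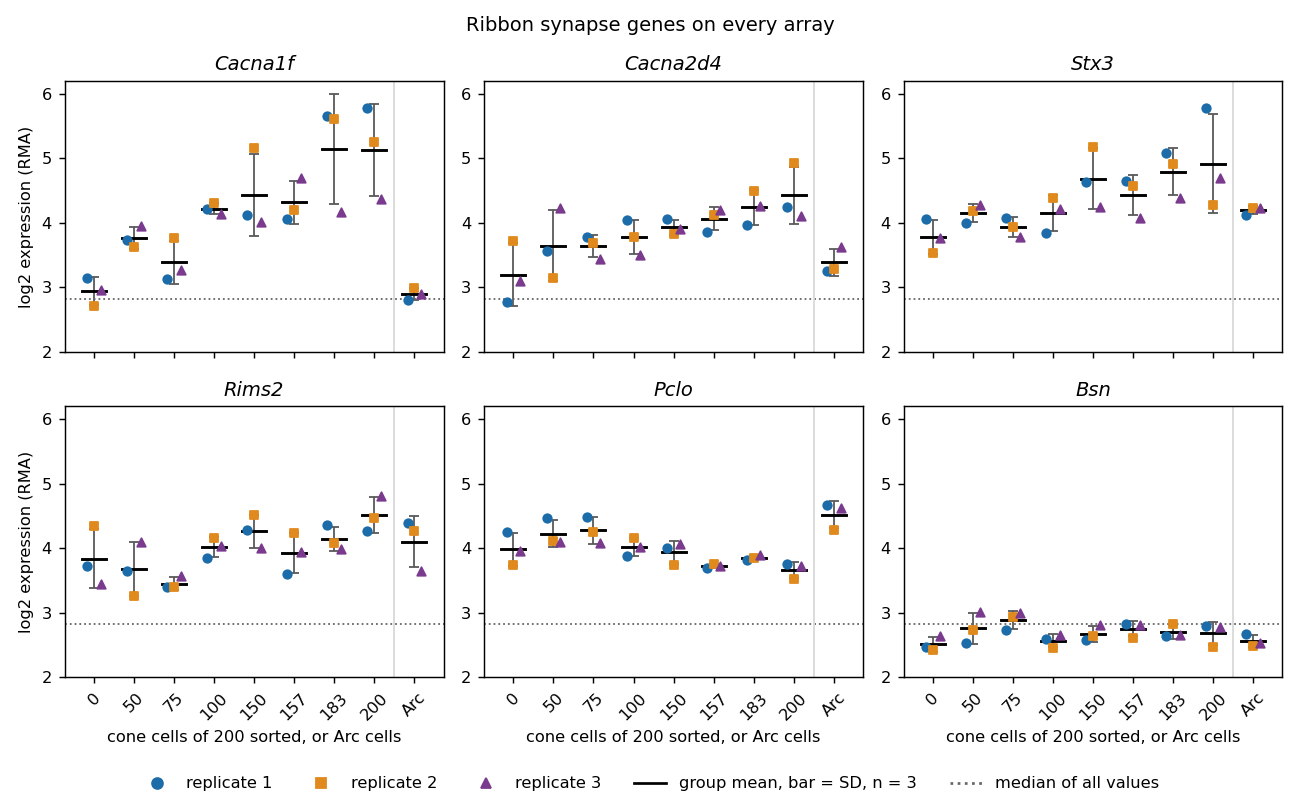
Log2 expression of the 6 measured ribbon synapse genes on each of the 27 arrays (y axis), by the number of cones among 200 sorted cells and for Arc cells (x axis). Points are arrays, with a symbol for each replicate number, horizontal bars are group means, error bars are SD (n = 3) and the dotted line is the median of all values (2.83). Cacna1f climbs from about that line to 5.14 in pure cones and Bsn stays near it.

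Counted together, 3 of the 6 measured members (Cacna1f, Cacna2d4 and Stx3) were called higher in cones than in starburst cells and 0 lower, where 2.64% of all tested genes were called higher. For the same 3 every cone array exceeded every starburst array, as it did for 11.0% of tested genes. The median difference of the 6 was 0.90, against -0.04 over all tested genes. The count was 1 without replicate 1 of every group and 1 with only the compared groups in the fit (Cacna1f in both), and it was 3 with the 6 arrays set aside. Against the Arc cells, 2 members (Cacna1f and Cacna2d4) were called lower in the Arc cells than in cones, where 2.51% of tested genes were, and the median was -0.57 against 0.07 over all genes. Groups did not overlap for 3 members lower in the Arc cells (Cacna1f, Cacna2d4 and Stx3) and for 1 higher (Pclo), against backgrounds of 11.6% and 22.6%. Without the second cone array this count of calls stayed at 2, with Stx3 in the place of Cacna2d4, and it was 1 without the first or the second Arc array or without replicate 1 or 2 of every group. Among the tested markers, 4 of 9 for rods and 3 of 8 for bipolar cells were also called lower in the Arc cells than in cones. Their part in the differences of the members was not tested. Between Arc and starburst cells 0 of 6 members were called by limma, against 3.55% of all genes. In this comparison 1 of the 6 (Pclo) had an unadjusted limma p under 0.05, a cut at which all genes were not counted. The arrays of 2 members (Pclo and Stx3) did not overlap there and were higher in the Arc cells, against 14.5% of genes. The 3 comparisons share their arrays in pairs and are not independent of each other.

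**Figure D2:**
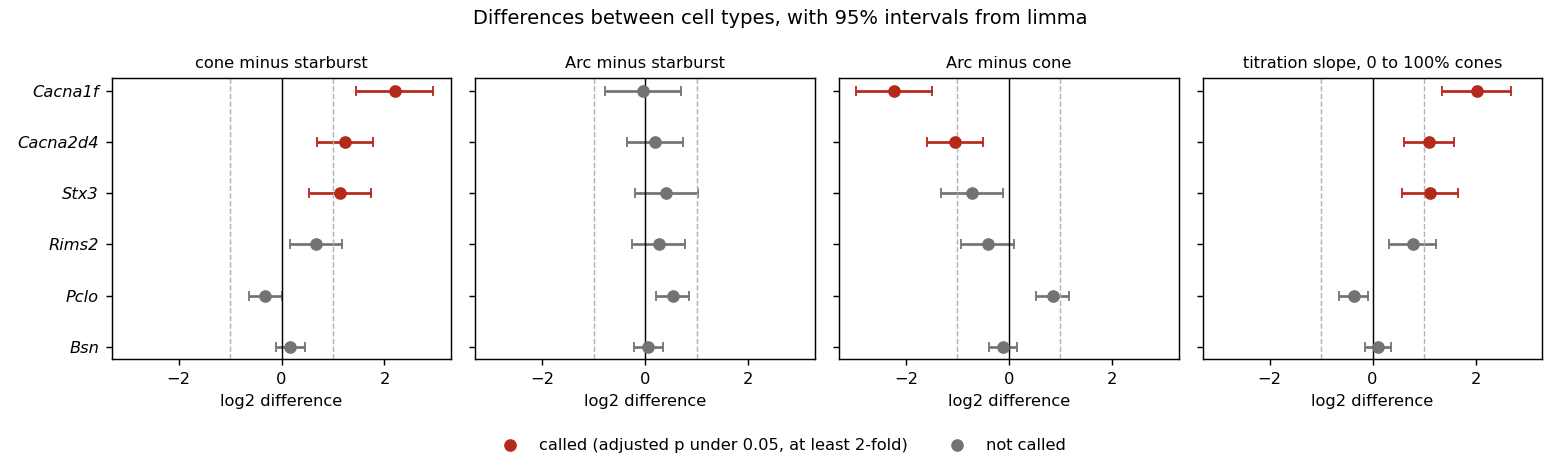
Log2 differences of the 6 members between the pure groups and per 100% cones in the titration (x axis, 95% intervals from limma, n = 3 arrays per group); red marks called genes and dashed lines the 2-fold threshold. Cacna1f and Cacna2d4 are called wherever cones enter, and Pclo lies on the other side of 0 from them when Arc cells are set against cones.

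The titration asks whether the values follow the share of cones. The slope over its 5 groups was 2.02 ± 0.32 log2 units per 100% cones for Cacna1f (SE, adjusted p = 9.6e-05), 1.1 ± 0.23 for Cacna2d4 (0.00200) and 1.12 ± 0.26 for Stx3 (0.00411). These 3 of 6 members were called higher with cones, where 2.55% of all genes were. Rims2 rose with a slope of 0.78 ± 0.22 (adjusted p = 0.0166), which is past the p threshold and under 2-fold, and Pclo had a slope of -0.37 ± 0.14 (adjusted p = 0.0730). Bsn had a slope of 0.10 ± 0.12. The slope of Cacna2d4 fell under the threshold without the first starburst array (0.93), the second array with 50 cones (1.0), the second cone array (0.90) or replicate 1 (0.96), and that of Stx3 without the first cone array (0.78) or replicate 1 (0.87). The pure groups are part of this slope, so it is not independent of the comparison above. A bend of the titration, taken as the equal mixture minus the mean of the pure groups, was called for 0 of 6 members by limma, with 0 at an unadjusted p under 0.05, against 0.273% of all genes called.

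Single mixtures showed the same genes at the cone-rich end. Cacna1f read 3.73, 3.63 and 3.96 with 50 cones, 3.13, 3.77 and 3.28 with 75, and 4.21, 4.31 and 4.14 with 100. With 150 cones it read 4.13, 5.16 and 4.01, with 157 it read 4.06, 4.21 and 4.70, and with 183 it read 5.66, 5.61 and 4.17. From 100 cones on, every array lay above every starburst array and above all arrays with 50 or 75 cones. Against pure starburst cells, 0 of 6 members were called with 50 or 75 cones, where 0.0482% of genes were called in each, and 0 with 100 cones (0.418%). At an unadjusted p under 0.05 limma gave 1 (Cacna1f), 1 (Bsn) and 2 members (Cacna1f and Cacna2d4) there. The shares of all genes given here belong to the adjusted rule and cannot be set beside these unadjusted counts. Bsn lay near the median of all values, and Cacna1f had an unadjusted limma p of 0.221 with 75 cones. With the replicate number as a block these 3 mixtures had 20, 11 and 83 called genes in place of 6, 6 and 52, and still 0 members. With 150 cones Cacna1f alone was called, at 1.49 ± 0.36 (adjusted p = 0.0265; 0.756% of genes called higher), and with 157 cones again Cacna1f, at 1.38 ± 0.36 (adjusted p = 0.0205; 0.852%). With 183 cones 3 members were called higher, where 1.90% of genes were. They were Cacna1f at 2.21 ± 0.36 (adjusted p = 4.7e-04), Cacna2d4 at 1.05 ± 0.26 (0.0153) and Stx3 at 1.01 ± 0.29 (0.0335).

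These calls in mixtures rest on few arrays. The call of Cacna1f with 150 cones ended without any of the starburst arrays, without the first or the second array of the mixture, and without replicate 1 or 2 of every group (adjusted p up to 0.371 over the fits with an array or a replicate number left out), and that with 157 cones without the second or the third starburst array, the second or the third array of the mixture, or replicate 1 or 2 of every group (up to 0.196). Without the second starburst array Cacna2d4 was called with 157 cones in its place (1.13, adjusted p = 0.0222). Of the 3 calls with 183 cones, those of Cacna2d4 and Stx3 ended under several such fits (adjusted p up to 0.178 and 0.306), and that of Cacna1f ended without replicate 2 of every group (1.86, adjusted p = 0.0643). With the 6 arrays set aside, Cacna1f was called with 100 cones as well (1.17, adjusted p = 0.0360), and Stx3 was not called with 183 (1.09, adjusted p = 0.0572).

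Turned back to a linear scale, a mixture can be placed on the distance from the starburst mean (0%) to the cone mean (100%). This place depends on the number of cells and on the RNA each gives, and fewer cells of a type cannot be told apart from less RNA per cell. It also depends on the background of the arrays, and the starburst mean of Cacna1f (2.94) lay near the median of all values (2.83). Every mixture of a gene is placed against the same pure means, and the cone arrays of Stx3 read 5.78, 4.28 and 4.70. Cacna1f lay at 19.8% ± 5.4 (SD, n = 3) where cells were 25% cones, at 9.8% ± 8.5 at 37.5%, and at 36.2% ± 3.6 at 50%. Toward the cone end it lay at 50.9% ± 36.1 at 75%, 41.9% ± 16.4 at 78.5% and 103.9% ± 60.8 at 91.5%. The arrays with 50 and 100 cones lay close together and those with more than 100 did not, the third array being the lowest with 150 and 183 cones and the highest with 157. For Cacna2d4 the means rose from 23.4% ± 11.5 at 37.5% cones to 75.4% ± 27.5 at 91.5%, with 28.5% ± 40.5 at 25%. For Stx3 they did not follow the share in order, with 20.0% ± 8.8 at 25%, 7.1% ± 8.4 at 37.5%, 65.3% ± 45.2 at 75%, 41.3% ± 22.9 at 78.5% and 73.8% ± 34.7 at 91.5%. The mixture with 75 cones lay below that with 50 cones in all 3 genes. This order was not particular to them. The mean log2 value of the cone markers was 4.84 to 6.98 with 75 cones and 7.24 to 7.52 with 50. Of the 18 means, 16 lay below the stated share of cones, the exceptions being Cacna1f at 91.5% and Cacna2d4 at 25% cones. On the log2 scale 12 of the 18 lay below it.

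**Figure D3:**
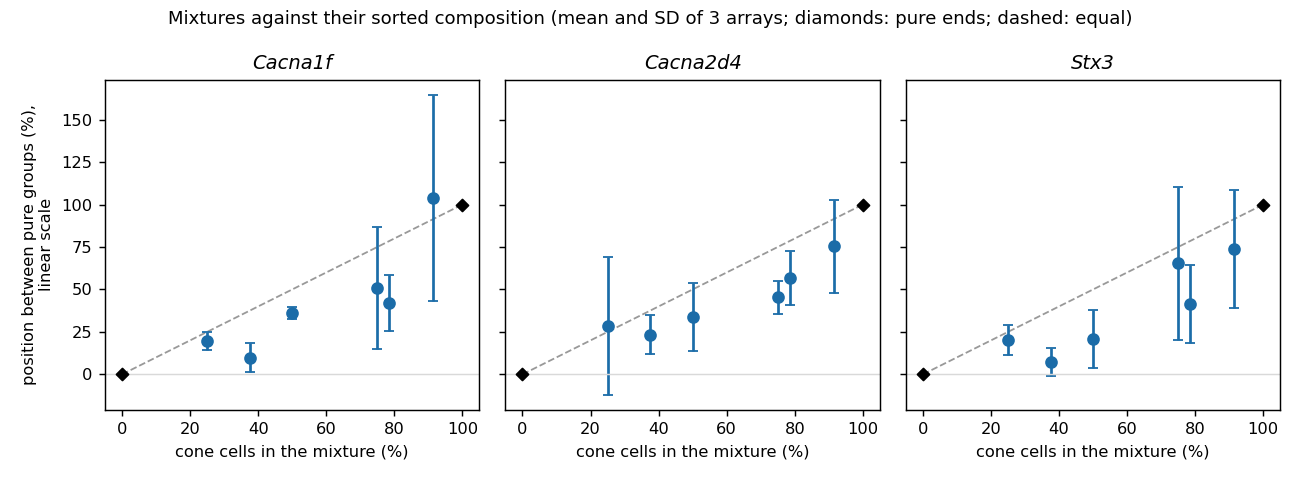
Position of each mixture between the pure starburst mean (0%) and the pure cone mean (100%) on the linear scale (y axis) against the percentage of cones sorted (x axis), for the 3 members called between the pure groups. Points are means and bars SD of 3 arrays, diamonds are the pure groups and the dashed line marks equality. Most means lie under that line, with SD up to 60.8 percentage points.

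Ordered by mean over the 9 groups, neighbours mostly overlapped. Cacna1f ran from the mixture with 183 cones (5.15 ± 0.85 SD) and pure cones (5.14 ± 0.71) down to starburst (2.94 ± 0.22) and Arc cells (2.90 ± 0.09), and 7 of its 8 neighbouring pairs overlapped in their arrays. The exception lay between the mixtures with 100 (4.22 ± 0.08) and 50 cones (3.77 ± 0.17). Cacna2d4 and Stx3 were highest in pure cones (4.43 ± 0.44 and 4.92 ± 0.77) and lowest in starburst cells (3.20 ± 0.48 and 3.79 ± 0.26), and all 8 neighbouring pairs overlapped in each. Rims2 was highest in pure cones (4.51 ± 0.28) and lowest in the mixture with 75 cones (3.45 ± 0.10), with 8 of 8 overlapping. Pclo ran the other way, from Arc cells (4.52 ± 0.21) to cones (3.67 ± 0.13), with 7 of 8 overlapping. Bsn ran from 2.89 ± 0.14 with 75 cones to 2.51 ± 0.11 in starburst cells, with 8 of 8 overlapping.

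Across the 27 arrays, which share the 9 groups, Cacna1f moved with Stx3 (Pearson r = 0.77) and with Cacna2d4 (0.72), and against Pclo (-0.65). Cacna2d4 and Stx3 were less alike (0.43), and Bsn had correlations of -0.26 to 0.17 with the others. The genes most like Cacna1f over these arrays were Mak (r = 0.92), a kinase of the photoreceptor cilium, Pcare (0.91), an actin regulator of that cilium, and the receptor gene Gpr152 (0.90). Those most like Cacna2d4 were the thioredoxin-like Nxnl2 (0.81), the outer segment protein gene Prph2 (0.78) and Rcvrn, which encodes recoverin (0.77). Stx3 was most like Pde8b (0.83), Crb1 (0.83), a polarity gene of photoreceptors, and Eno3 (0.83). Pclo was most like Tfap2a (0.83), a transcription factor of amacrine cells, Septin6 (0.83) and Gria3 (0.82), an AMPA receptor subunit. Rims2 was most like Cadm1 (0.79), Icmt (0.73) and Hadhb (0.73), and Bsn most like Erich5 (0.73), Crtc1 (0.65) and Zfp775 (0.64). These correlations describe the arrays and carry no test.

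**Figure D4:**
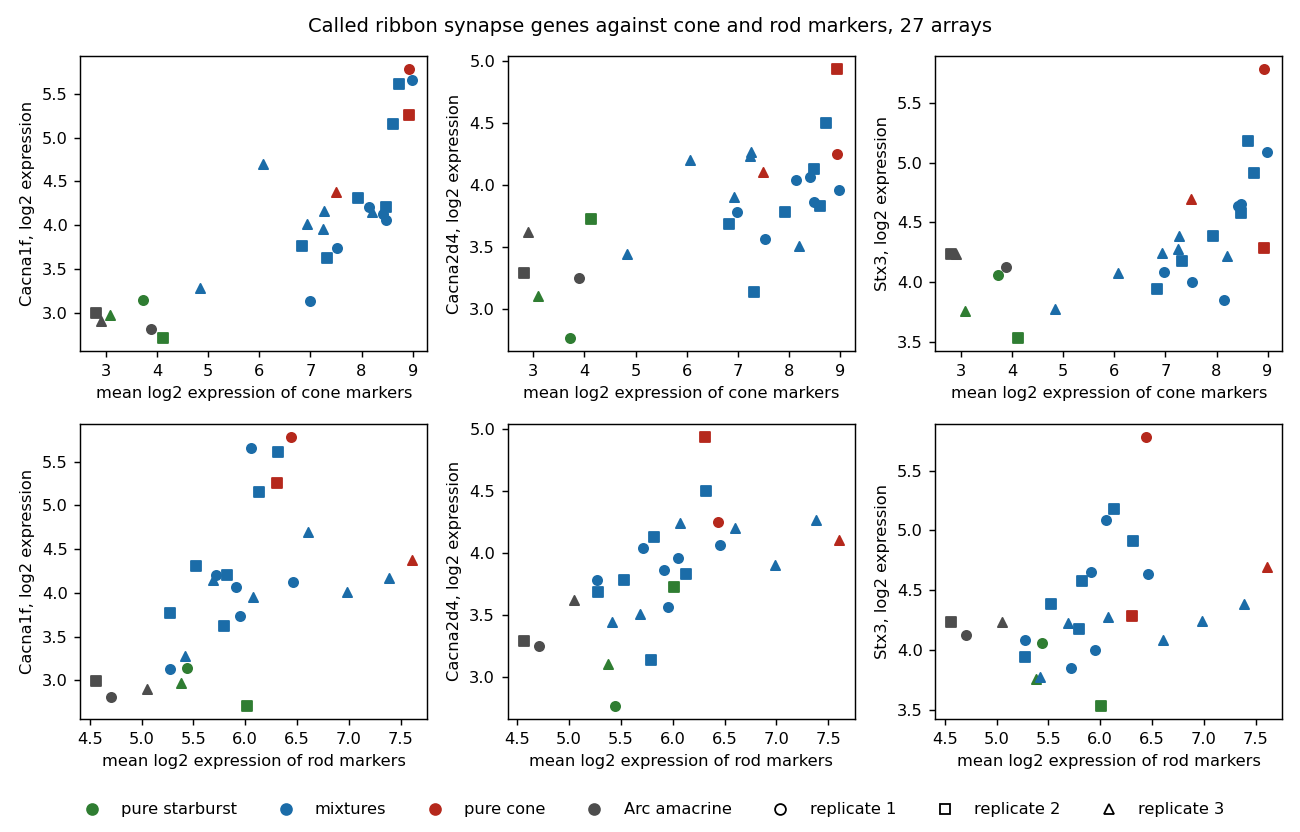
Log2 expression of Cacna1f, Cacna2d4 and Stx3 (y axes) against the mean log2 expression of cone markers (upper panels) and rod markers (lower panels) on the same 27 arrays (x axes). Colours give the cell groups and symbols the replicate number; the third pure cone array lies at 7.50 for the cone markers and 7.61 for the rod markers.

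Other genes of the presynaptic terminal were read from 5 lists of 86 genes, of which 80 were measured and 63 tested. Between cones and starburst cells, 7 of the 63 were called higher in cones and 6 lower, where 2.64% and 5.79% of all genes were. Their median difference was -0.09, near that of all genes (-0.04).

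The list of synaptic cleft and partner proteins held 4 of the 7 genes higher in cones, where 2.64% of all tested genes were called higher. Of 9 tested cleft and partner genes, the leucine-rich repeat gene Lrit2 was higher by 2.28 ± 0.33 (SE, adjusted p = 4.4e-05) and Dmd, the dystrophin gene, by 1.53 ± 0.17 (1.7e-06). Elfn1, an adhesion protein that photoreceptors use to contact bipolar cells, was higher by 1.18 ± 0.22 (5.1e-04). Egflam, which encodes the dystroglycan ligand pikachurin, was higher by 1.09 ± 0.27 (0.00785), a call that ended without the second starburst array (0.97) and without replicate 1 (adjusted p = 0.0889) or 2 (0.194) of every group. Dmd read 2.58 to 2.79 in starburst cells, under the median of all values, so its fold depends on the background. The calcium pumps Atp2b1 (0.74 ± 0.34, adjusted p = 0.168) and Atp2b2 (-0.70 ± 0.23, 0.0490) were not called, and Atp2b1 was called at 1.28 with the 6 arrays set aside.

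Among SNARE and fusion proteins, the complexins of ribbon synapses stood on the cone side. Cplx4 read 8.92, 8.65 and 8.54 in cones, 5.56, 5.60 and 4.78 in starburst cells and 4.0, 3.37 and 3.47 in Arc cells, in 3 ranges that did not overlap. It was higher in cones than in starburst cells by 3.39 ± 0.29 (SE, adjusted p = 3.3e-08). Cplx3 read 9.30, 8.62 and 8.06 in cones and 5.56, 7.32 and 6.09 in starburst cells, a difference of 2.34 ± 0.43 (adjusted p = 6.3e-04), but its highest readings were 9.90, 9.57 and 9.51 in Arc cells. The plasma membrane SNARE genes Stx4a (-1.56 ± 0.44, adjusted p = 0.0189) and Snap25 (-1.13 ± 0.15, 1.7e-05) were lower in cones. In this list 2 of 16 tested genes were thus called higher and 2 lower, where 2.64% and 5.79% of all genes were. Snap25 lay under the fold threshold after quantile normalization (-0.82). The call of Stx4a ended without the first starburst array (adjusted p = 0.103), the third cone array (0.0970) or replicate 2 (0.0812) or 3 (0.137). The calcium sensor Syt1 (-0.41 ± 0.18, 0.151) and the SNAP gene Napa (-0.91 ± 0.30, 0.0445) were not called, and Napa was called without the first cone array (-1.30) or replicate 1 (-1.16).

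Of 16 tested active zone and ribbon proteins, 1 was called higher in cones and 3 lower, where 2.64% and 5.79% of all genes were. The gene higher in cones was Unc119, a lipid-binding protein of photoreceptors that also binds RIBEYE, at 11.20, 11.09 and 10.71 against 8.99, 9.28 and 8.74 in starburst cells (2.0 ± 0.25 SE, adjusted p = 6.4e-06). Erc1, an ELKS scaffold, read 4.15, 3.00 and 6.99 in cones against 7.77, 8.02 and 8.35 (-3.33 ± 0.58, 3.2e-04). The third cone array read highest for Erc1 in its group, and the call ended without replicate 2 of every group (-2.48, adjusted p = 0.0516) and with only the compared groups in the fit (0.0749). The priming factor Unc13a was lower by a difference of -1.67 ± 0.29 (3.6e-04). Ctbp1, the relative of the unmeasured Ctbp2, had a difference of -1.31 ± 0.36 (0.0154), and this call ended without the first or second starburst array or the second or the third cone array (adjusted p 0.0593 to 0.0840), with replicate 2 left out (0.281) and with the 6 arrays set aside (0.121). The kinesin subunit Kif3a (-0.73 ± 0.32) and the adhesion gene Nrxn3 (-0.46 ± 0.20) were not called, both at an adjusted p of 0.148.

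Of 8 tested channel subunits and regulators, 0 were called higher in cones by limma (1 at an unadjusted p under 0.05), where 2.64% of all genes were. Called lower was 1 of the 8, where 5.79% of all genes were. That gene was Cabp1, a calcium-binding modulator of channels (-1.94 ± 0.27 SE, adjusted p = 2.6e-05). Cacna2d1, a relative of Cacna2d4, had a difference of -0.95 ± 0.33 (0.0568) and Cabp2 of -0.20 ± 0.27 (0.711). Of 14 tested vesicle proteins, 0 were called by limma, with 6 at an unadjusted p under 0.05. For both lists, the share of all genes at that unadjusted p was not counted. Rab3a, a vesicle GTPase, differed by -0.77 ± 0.20 (adjusted p = 0.0104) and the vesicle chaperone gene Dnajc5 by 0.74 ± 0.22 (0.0291), both under 2-fold. Rab3a was called without replicate 1 of every group (-1.03).

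Set against the Arc cells, the same lists gave 12 genes higher in the Arc cells than in cones and 8 lower, where 7.83% and 2.51% of all genes were. In the Arc cells Cplx4 was lower by a difference of -5.09 ± 0.29 (SE, adjusted p = 6.5e-11), Lrit2 by -2.82 ± 0.33 (2.3e-06), Unc119 by -2.60 ± 0.25 (1.2e-07), Dmd by -1.54 ± 0.17 (1.3e-06) and Elfn1 by -1.46 ± 0.22 (3.7e-05). The vesicular glutamate transporter Slc17a7, Sv2b and Egflam, which were also lower, were named after their values were seen. Higher in the Arc cells were Erc1 (3.72 ± 0.58), Kif3a (2.28 ± 0.32), Unc13a (2.19 ± 0.29), the vesicle protein genes Syngr1 (1.88 ± 0.32), Rab3a (1.64 ± 0.20), Rab3c (1.63 ± 0.38) and Sv2a (1.47 ± 0.24), Atp2b1 (1.75 ± 0.34), Cabp1 (1.67 ± 0.27), Snap25 (1.67 ± 0.15) and Stx4a (1.66 ± 0.44), and Unc13c was named after its values were seen. Of these calls, that of Stx4a ended without the third cone array (1.37, adjusted p = 0.0625) or replicate 2 (1.59, 0.119) or 3 (1.38, 0.0987) of every group, and that of Rab3c without replicate 1 (1.14, 0.0941) or 3 (1.62, 0.0769). Rab3c read 2.17, 2.58 and 2.75 in cones, under the median of all values, so its difference depends on the background. Between Arc and starburst cells 5 of the 63 were called higher and 1 lower, against 3.55% of all genes in either direction. They were Cplx3 (3.34 ± 0.43), Atp2b1 (2.49 ± 0.34), Syngr1 (1.80 ± 0.32), Unc13c (1.70 ± 0.25) and Kif3a (1.55 ± 0.32), and, lower, Cplx4 (-1.70 ± 0.29). Unc13c read 2.16, 2.28 and 2.43 in starburst cells, under the median of all values as on all cone arrays, and 4.80, 3.52 and 3.64 in Arc cells, so the size of its difference depends on the background. The calls of Syngr1 (1.58) and Kif3a (1.64) ended without replicate 1 of every group and that of Cplx4 without replicate 2 (-1.44).

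Over the titration, 8 of the 63 had a called slope upward with cones and 7 downward, where 2.55% and 5.80% of all genes did. The 7 genes called higher between the pure groups were among the 8, with Sv2b added (1.04 ± 0.22 per 100% cones, adjusted p = 0.00163), a call that ended without the first (0.98) or second (0.98) array with 150 cones and without replicate 1 (adjusted p = 0.0458, under the fold threshold) or 2 (0.91, adjusted p = 0.0968) of every group. Its starburst readings of 2.56, 2.34 and 2.37 lay under the median of all values, so the slope starts from background. Sv2b encodes a vesicle protein found at photoreceptor terminals. The slope call of Egflam (1.05 ± 0.24) held in 12 of 18 fits with an array or a replicate number left out (adjusted p up to 0.134). Downward, the slope calls of Ctbp1 (-1.10 ± 0.32) and Stx4a (-1.41 ± 0.39) held in 13 of 18 such fits each (up to 0.262 and 0.0866). Of the tested markers, 2 of 9 for rods (Sag, 2.61 ± 0.25, and Rom1, 1.96 ± 0.19) and 1 of 8 for bipolar cells (Cabp5, 2.71 ± 0.34) had a called upward slope in the same titration, and their part in these slopes was not tested.

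**Figure D5:**
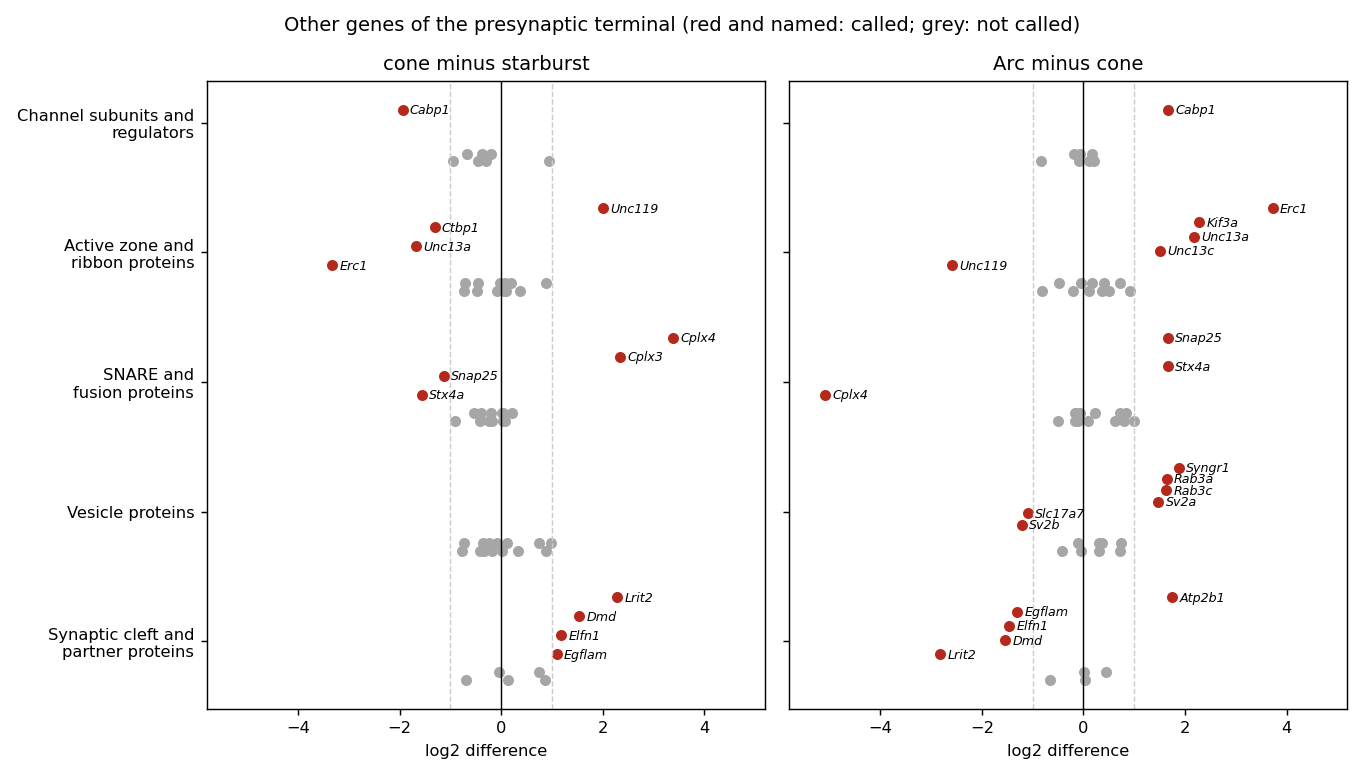
Log2 differences (x axes) of the 63 tested genes in 5 lists of presynaptic proteins, for cones minus starburst cells (left) and Arc cells minus cones (right). Red points with names are called, grey points are not, dashed lines mark 2-fold, and vertical spread within a list has no meaning. Cleft and partner genes called higher in cones lie to the right on the left panel and to the left on the right panel.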

How the data were processed

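The authors deposited log2 expression values for each probe set. Per the submitters' processing notes they come from RMA in the R package oligo (R 2.11.1), with mm9 named as the build. Which arrays were normalized together is not given in the sources used here. Array medians ran from 2.78 to 2.89, replicates correlated at 0.935 to 0.979, and no array repeated another. For arrays there is no read depth, and their number limits the precision. Gene names come from a platform table: 19446 of 22347 probe sets had a single symbol and were used, 735 had several and 2166 none. Where a gene had more than 1 probe set (133 genes), the brightest was taken. A gene was tested if at least 3 arrays exceeded 2.83, the median over the whole table, which left 12441.

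A single limma model (version 3.58.1, R 4.3.3; a mean for each group, moderated by eBayes, with 18 residual and 3.42 prior degrees of freedom) covered the 27 arrays, and its tests are two-sided. The script was tested on simulated data. Figures were drawn with matplotlib 3.10.9. Members and lists were chosen with earlier results of these data known. All members are named. Of each wider list, the rule names up to 4 called genes with the largest difference and up to 2 uncalled ones with the highest mean in each comparison of cell types, and the 3 genes most correlated with each member are given as well. The same choice was made for the titration slope, where it gave Sv2b. Genes of the wider lists outside this rule are marked as named after their values were seen. Single marker genes, such as Slc18a3, Opn1mw and Gng13, were named without a rule. Positions of mixtures were computed on 2 to the power of the deposited value.

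The design text says that the titration was sorted 3 times from different mice, so replicate numbers mark shared sorts there; it does not say so for the mixtures with 75, 157 and 183 cones or the Arc cells. Deviations from the group means correlated with a median of 0.018 over 30 pairs of titration arrays with the same number and -0.012 over 60 pairs with other numbers. Over all 9 groups the median was 0.025 for 108 pairs with the same number (range -0.029 to 0.305). It was -0.014 for 216 pairs with other numbers (-0.260 to 0.211), so single pairs deviated together more than the medians show. The number was left out of the model and tried as a block. Other alternatives were the filter on dim genes (none, or a floor of 4), quantile normalization, median centring, a trended robust prior, the mean over probe sets, models of the compared groups alone, each array or replicate number left out, and log2 positions. A model without 6 arrays was added after seeing the data. P-values measure the spread between arrays.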

Additional observations from a re-analysis of the deposited data

How the results depend on the processing

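Calls of the members held in every comparison without a filter on dim genes, with a trended robust prior, with the mean over probe sets and after quantile normalization. Median centring took Stx3 with 183 cones to 0.99, under the fold threshold. With the replicate number as a block no member's call changed (3 of 6 for cones against starburst cells, where 1081 genes in all were called); of the wider lists, Cacna2d1 was gained between Arc and starburst cells (-1.04, adjusted p = 0.0339). With the compared groups alone in the model, the members called were 1 for cones against starburst cells, 1 with 100 cones, 0 with 150 and 1 with 183. With 6 arrays set aside 1 member was called with 100 cones. Leaving out an array or a replicate number gave 1 to 3 members for cones against starburst cells and for the slope, 1 to 2 for Arc cells against cones, 0 to 1 with 150 and with 157 cones and 0 to 3 with 183. On the log2 scale Cacna1f lay at 37.9% with 50 cones, 20.5% with 75, 58.3% with 100 and 63.0% with 157, Cacna2d4 at 35.8% with 75 and 59.6% with 150, and Stx3 at 32.4% with 50. Leaving out a replicate number moved Cacna1f between 13.2% and 30.3% with 50 cones, 3.0% and 20.1% with 75, 29.5% and 52.0% with 100, 28.8% and 84.2% with 150 and 25.4% and 67.6% with 157. Cacna2d4 moved between 2.1% and 73.2%, 7.7% and 44.3%, 12.9% and 59.3%, 28.6% and 77.8%, and 40.5% and 83.8% with 50, 75, 100, 150 and 157 cones. Stx3 moved between 10.2% and 61.1%, 0.70% and 19.4%, 5.6% and 71.1%, 26.8% and 148.0%, 23.4% and 77.2%, and 48.6% and 127.6% with 50, 75, 100, 150, 157 and 183 cones. Counts over all genes moved by over 1.5 times as follows. With 50 cones, 6 genes became 20 with the block, 10 with the stricter filter, 11 after quantile normalization, 21 with the compared groups alone and 43 with 6 arrays set aside. With 75 cones, 6 became 11, with the compared groups alone 1 and with 6 arrays aside 25. With 100 cones, 52 became 83 with the block and 111 with 6 arrays aside. The compared groups alone gave 58 in place of 217 with 150 cones, 306 in place of 508 with 157 (330 after quantile normalization), 404 in place of 610 with 183 and 18 in place of 34 for the bend, which was 60 with 6 arrays aside. Leaving out an array or a replicate number gave 1 to 23 genes with 50 and with 75 cones, 9 to 100 with 100, 26 to 254 with 150, 104 to 527 with 157 and 174 to 722 with 183, 260 to 419 in place of 442 for Arc against starburst cells and 12 to 49 for the bend, so the shares of all genes called in these comparisons move with single arrays. Under the stricter filter 18 results had no value, since the gene was removed. The cause of these changes was not tested. With 3 arrays a group, and with Bsn and the amacrine readings of Cacna1f near the median of all values, small differences and folds at this level are poorly measured.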

Other observations

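Some relatives of the members that were not called between cones and starburst cells are given here, picked after their values were seen. Cabp4, a calcium-binding partner of Cav1.4, read 4.57, 4.50 and 3.38 in cones and 3.21, 3.00 and 3.42 in starburst cells, so that the groups overlapped, and the difference was 0.94 ± 0.34 (SE, limma adjusted p = 0.0699). The priming factor Unc13b was higher in cones by 0.88 ± 0.16 (adjusted p = 3.7e-04), under the 2-fold threshold, where Unc13a was lower by a difference of -1.67. Rims1 had a difference of -0.71 ± 0.15 (adjusted p = 0.00184) and Rims2 one of 0.67 (0.0727); whether paired genes differ from each other was not tested. Stx1a, the syntaxin of conventional synapses, had a difference of -0.19 ± 0.14 (adjusted p = 0.448).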
